A study of Sus scrofa with 16 samples.

Results

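Early liver-only regions are stretches of accessible chromatin that were listed in pig liver at birth and at 28 days, but neither in adult liver nor in 5 other newborn tissues. They were chosen by calls, as peaks of the newborn liver list on chromosomes 1 to 18 that overlap a suckling liver peak by 1 bp or more and overlap no adult liver peak and no newborn heart, kidney, lung, skeletal muscle or spleen peak. The rule found 4488 regions among 115504 newborn liver peaks, which is 3.89% of them (95% interval from 3.78% to 4.0%), and the series holds 798988 peaks in 8 lists. The measured values that chose them are these calls, and a missing call is not a measurement of closed chromatin. Of the 4488 regions, 553 (12.3%) lay within 500 bp of an adult liver peak, so "not listed in the adult" is the most that can be said of them.

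ATAC-seq, in which a transposase cuts adaptors into open DNA, was run on 16 libraries from female crossbred domestic pigs. The groups are 8, with 2 libraries each: newborn liver, spleen, lung, kidney, heart and skeletal muscle, labelled day 0, suckling liver of 28 days, and adult liver of 180 days. The labels give no treatment and no engineered allele. Per the methods of the study, the animals were Berkshire and Tibetan hybrids, the pigs of an age were full sibs, and the same newborns gave all 6 tissues, so the newborn lists share their animals and each age rests on a single pair of sisters. Each deposited list joins the libraries of a group, so no count below has replicate error, no test between ages could be made, and how deeply a peak was sequenced is not known from them. Whole frozen tissue was used, in which fewer cells of a type and less open chromatin per cell cannot be told apart. As a check of the tissue, 21 of 25 plasma protein genes with a newborn liver peak (84.0%) held a liver-only region listed at all 3 ages, against 29.1% of all protein-coding genes with a newborn liver peak.

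The liver of a newborn mammal leaves its fetal tasks, which include blood formation and growth under fetal programmes, and takes on the metabolic tasks of the adult. Hepatocyte genes are read from enhancers that bind a small set of factors, among them HNF4A, FOXA, C/EBP and ONECUT proteins and NFI proteins. GATA factors act in liver development, in blood formation and in the endothelium of the liver sinusoids. Enhancers that are open early and not later are one of the ways in which such a programme is turned over.

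The regions that stood highest in both liver lists show what the best-supported members look like. They were ranked by the poorer of their positions in the newborn list, by the smaller −log10 p of the replicates, and in the suckling list. Below are the summit and 100 bases on each side for the 4 best-ranked regions outside promoters and for 2 of the best-ranked in promoters, from the RefSeq copy of Sscrofa11.1, plus strand, 5′ to 3′. Capitals mark a match, on either strand, to any of 19 factor consensus sequences that are spelled out further on.
Region nearest ADGRL2, chr6:132566646-132566846: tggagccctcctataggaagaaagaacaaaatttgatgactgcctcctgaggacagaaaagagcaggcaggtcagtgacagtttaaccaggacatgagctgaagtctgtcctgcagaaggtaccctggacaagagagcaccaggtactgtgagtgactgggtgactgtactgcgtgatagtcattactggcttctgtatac
Region nearest SOX17, chr4:76918033-76918233: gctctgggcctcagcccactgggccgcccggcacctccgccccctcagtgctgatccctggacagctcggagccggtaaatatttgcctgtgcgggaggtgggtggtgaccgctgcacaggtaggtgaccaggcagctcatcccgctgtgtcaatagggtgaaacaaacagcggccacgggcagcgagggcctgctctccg
Region nearest FAM19A4, chr13:50370943-50371143: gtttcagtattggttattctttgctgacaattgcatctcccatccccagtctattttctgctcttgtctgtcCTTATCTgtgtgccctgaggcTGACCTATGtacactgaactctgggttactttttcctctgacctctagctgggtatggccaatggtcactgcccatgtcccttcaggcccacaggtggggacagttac
DDR2 intron, chr4:87900646-87900846: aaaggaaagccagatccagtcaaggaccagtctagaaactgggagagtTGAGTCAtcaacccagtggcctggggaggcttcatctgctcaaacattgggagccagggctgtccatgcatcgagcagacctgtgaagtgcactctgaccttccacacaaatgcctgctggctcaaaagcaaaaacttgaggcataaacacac
PELO and ITGA1 promoter, chr16:32128748-32128948: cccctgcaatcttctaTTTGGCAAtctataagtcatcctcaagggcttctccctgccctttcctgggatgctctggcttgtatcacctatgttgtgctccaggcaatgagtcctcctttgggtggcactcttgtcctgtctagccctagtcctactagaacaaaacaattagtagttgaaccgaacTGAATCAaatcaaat
LOC110261309 promoter, chr6:61629737-61629937: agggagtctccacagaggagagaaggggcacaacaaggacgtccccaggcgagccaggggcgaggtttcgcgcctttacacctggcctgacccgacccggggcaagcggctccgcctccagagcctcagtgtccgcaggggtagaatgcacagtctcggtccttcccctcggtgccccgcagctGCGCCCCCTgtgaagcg
Of these windows, those near ADGRL2 and SOX17 held no match. The window near FAM19A4 held a match to the DR1 and one to the GATA consensus, and the DDR2 window a match to the AP1 consensus. The PELO and ITGA1 promoter window matched the CEBP, NFI and AP1 consensus, with the first of these overlapping the NFI match. The promoter window of LOC110261309 matched CTCF.

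The best-ranked region, chr6:132566270-132566947, lay in intergenic DNA, 200503 bp from the transcription start site of ADGRL2, an adhesion G protein-coupled receptor. Its −log10 p was 166 and 51.8 in the replicate columns of the newborn list and 70.6 and 70.5 in those of the suckling list. It stood in the top 4.96% of newborn liver peaks and the top 1.86% of suckling peaks, and the nearest adult liver peak was 200044 bp away.

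The next region, chr4:76917870-76918561, lay 61073 bp from the start of SOX17, a transcription factor of endoderm, bile duct and endothelium. In the newborn list its −log10 p was 247 and 77.7, and in the suckling list 36.9 and 85.8. An adult peak lay 3122 bp away, and no peak of another newborn tissue lay nearer than 3082 bp. At chr13:50370936-50371180, 17610 bp from FAM19A4, which codes for a small secreted protein, the newborn values were 42.6 and 62.4 and the suckling values 50.6 and 76.8. Its first newborn value lay between the median (24.9) and the upper quartile (82.2) of all newborn liver peaks in that column. The second lay above the upper quartile of its column (17.2). Its newborn IDR, the expected share of irreproducible peaks at that rank, was 0.182. The fourth region, chr4:87900570-87900985, lay in an intron of DDR2, a receptor tyrosine kinase for collagen, with 180 and 38.1 in the newborn list and 38.5 and 39.3 in the suckling list.

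Further intronic regions lay in AFF3, a nuclear protein of the AF4 family, SCFD2, and SUPT3H, a subunit of a histone acetyltransferase complex. Their newborn −log10 p in the first replicate column ran from 92.5 for SCFD2 to 123 for SUPT3H. The AFF3 region, chr3:54693678-54694182, lay 170 bp from a peak of another newborn tissue, the closest of the first 10. Places 9 and 10 were intergenic, 113132 bp from NR4A2, an orphan nuclear receptor, and 269979 bp from SOX11, a transcription factor of progenitor cells. The NR4A2 region, chr15:63379942-63380399, had the highest single newborn value of the 10, 337 in the first column against 55.2 in the second, and 23.3 and 32.0 in the suckling list.

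Promoter members were weaker. The best-ranked, chr16:32128651-32129007, lay 1425 bp from the start of PELO, a ribosome rescue factor whose gene lies within ITGA1, a collagen-binding integrin subunit. Its newborn −log10 p was 22.3 and 29.5 and its suckling −log10 p 39.0 and 57.7, and adult liver had a peak 382 bp away.

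Further down, the promoters of RAP1GAP2, MAMSTR, ZHX3, TRMT6 with MCM8, DLG2, ACTA2 and CDH17 held the remaining promoter regions named. ACTA2, the smooth muscle actin of activated stellate cells, had a region 29 bp from its start with 9.83 and 9.28 at birth and 11.5 and 10.7 at 28 days. CDH17, the liver-intestine cadherin, had a region 82 bp from its start, chr4:42514863-42515441, with 122 and 10.04 in the newborn replicate columns, which is a wide gap between libraries, and 7.87 and 25.1 in the suckling list. At DLG2, an adult peak lay only 83 bp away.

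Most members were weak peaks. This is a description, since calls chose the members. The median −log10 p of the 4488 regions was 8.46 in the first replicate column of the newborn list (quartiles 5.07 and 21.9) and 6.58 in the second (4.997 and 9.33). Liver-only regions listed at all 3 ages had medians of 61.5 (21.6 and 127) and 9.20 (5.95 and 15.9). The 2 classes thus stood far apart in the first column and overlapped broadly in the second. Within a region, the first column was the higher in 64.2% of members and in 92.7% of the regions listed at all 3 ages. Members were also narrower, with a median width of 280 bp against 452 bp.

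**Figure D1:**
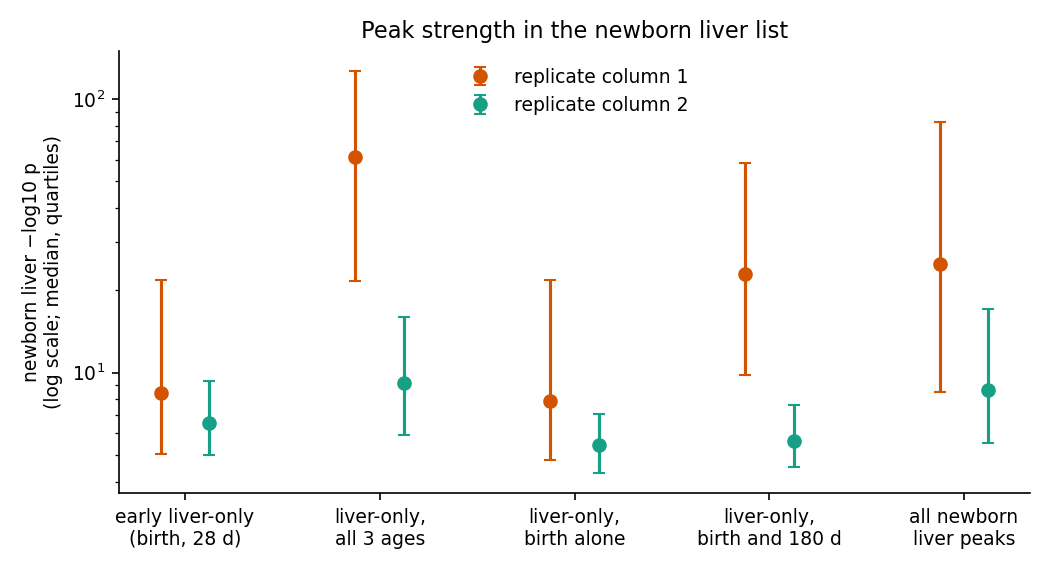
Newborn liver −log10 p (log axis) of early liver-only regions, of 3 other classes of liver-only regions and of all newborn liver peaks. Points are medians over regions in each replicate column and bars run between the quartiles; early regions have medians of 8.46 and 6.58 and regions of all 3 ages 61.5 and 9.20.

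An IDR of 0.05 or lower was reached by 221 members (4.92%, 95% interval from 4.33% to 5.60%), against 24.5% of regions listed at all 3 ages and 19.3% of all newborn liver peaks. The suckling partner reached it for 412 members (9.18%) and for 45.0% of regions listed at all 3 ages, while 33.9% of all suckling liver peaks did. Both peaks passed for 55 members (1.23%) and neither for 3910 (87.1%). Members that pass this limit in both lists are thus few.

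The share of newborn liver peaks that met the rule was 0.459% in the strongest of 10 equal bins of the list (53 of 11550 peaks) and 6.84% in the weakest (790 of 11550). Among liver-only regions listed at birth and 28 days, the share without an adult peak was 6.12% in the strongest bin and 49.7% in the weakest. Being called at birth and 28 days but not in the adult thus moved with peak strength, and the part of strength in membership was not tested.

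**Figure D2:**
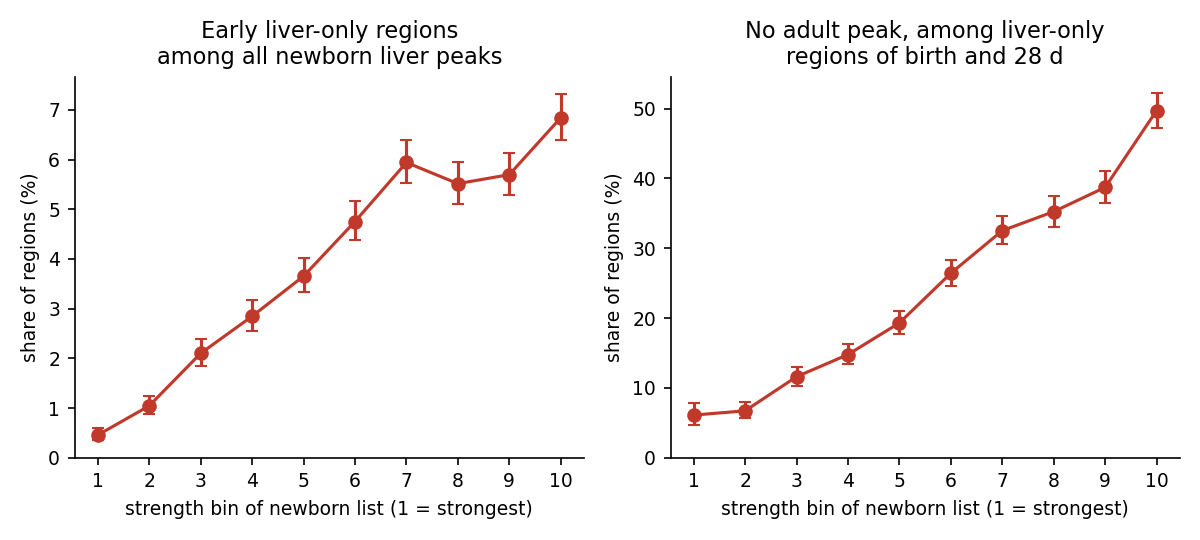
Share of regions (%) in each of 10 equal bins of the newborn liver list by the smaller −log10 p, bin 1 being the strongest, with Wilson 95% intervals. The left panel shows early liver-only regions among all newborn liver peaks, from 0.459% to 6.84%, and the right panel the regions without an adult peak among liver-only regions of birth and 28 days, from 6.12% to 49.7%.

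Membership at the edges turned on single bases. The members with the smallest overlap with a suckling peak, near CHMP6 and DNAJC8, shared 1 bp with it, and those nearest to an excluded peak, near RASSF2, LOC100517751 and TIAM2, lay 1 bp from it. Just outside the rule, peaks near MIPOL1 and SUCLA2 shared 1 bp with an adult peak. The newborn −log10 p of these 7 regions ran from 3.27 to 11.3, with no clear step between the 5 inside and the 2 outside. Within 500 bp of an excluded peak lay 1039 members, and the median distance to an adult liver peak was 5434 bp (quartiles 1564 bp and 13237 bp).

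Most members lay in introns and between genes. Introns held 2265 (50.5%, 95% interval from 49.0% to 51.9%), intergenic DNA 1670 (37.2%), exons 377 (8.40%) and promoters 157 (3.50%, from 2.999% to 4.08%). Promoters, reaching from 2.2 kb before to 500 bp after a start site, held 5.09% of regions listed at all 3 ages, a difference of −1.59 percentage points (95% interval from −2.22 to −0.91) with the same sign on 16 of 18 autosomes. Introns were higher by 3.13 points (1.45 to 4.81), on 17 of 18 autosomes. Against regions listed at birth alone, the promoter difference was 0.34 points (−0.28 to 1.00) and the intron difference 1.16 (−0.60 to 2.91). The intron difference was 1.58 (−0.62 to 3.77) against regions of birth and 180 days, and −0.54 (−2.49 to 1.41) against those of 28 and 180 days. In 4 equal bins of strength, its interval against regions of all 3 ages lay above 0 only in the weakest, at 4.98 (1.92 to 8.02). All newborn liver peaks had 15.4% in promoters, but the rule removes peaks shared between tissues, so this gap is no finding. Mean GC content was 52.1% in members and 48.8% in regions listed at all 3 ages, and repeats covered 17.9% and 16.4% of the windows. By chromosome, members made up from 3.40% of newborn liver peaks on chromosome 12 to 4.48% on chromosome 11.

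Taken as a whole, the members differed in motif shares from the regions that stayed listed. Members were the weaker peaks, and the part of strength in this was not tested. The consensus sequences searched on both strands of these windows of 100 bases on each side of the summit were CAAAGTCCA for HNF4, CANAGGTCA for DR1 (a nuclear receptor site that overlaps HNF4 and NR5A2 sites), GTTAATNAT for HNF1, TGTTTAC for FOXA, TTGCNNAA for CEBP, AATCAATA for ONECUT, TCAAGGTCA for NR5A2, and TTGGCA for NFI, which is a half-site. Further ones were AGATAAG for GATA, CCACACCC for KLF1, TGANTCA for AP1, ACATTCC for TEAD, AACAATGG for SOX, GAGGAAGT for SPI1, TTCNNNGAA for STAT5, ACANNNTGT for GR, ATCAAAG for TCF7L2, CACGTG for EBOX and AGNGGGCGC for CTCF. A match is a string of letters, not a bound site.

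All 6 hepatic motifs (HNF4, DR1, HNF1, FOXA, CEBP and ONECUT) were found less often in members than in regions listed at all 3 ages. The CEBP consensus lay in 434 members (9.67%) against 17.4%, a difference of −7.71 points (95% interval from −8.76 to −6.62), on 18 of 18 autosomes. FOXA lay in 4.08% against 7.96% (−3.88 points, −4.59 to −3.13). HNF4 lay in 31 members (0.69%) against 2.13%, HNF1 in 0.76% against 1.71%, ONECUT in 1.34% against 3.07% and DR1 in 3.99% against 6.31%. At least 1 of the 6 lay in 857 members (19.1%) and in 33.7% of regions listed at all 3 ages, a difference of −14.6 points (−16.0 to −13.2) on 18 of 18 autosomes. The 6 were pooled after their values were seen. Over all newborn liver peaks the pooled share was 20.03%, close to that of the members.

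The NFI half-site, recognised by a family of hepatic enhancer factors, was in 448 members (9.98%), against 17.5% of regions listed at all 3 ages and 21.4% of liver-only regions listed at 28 and 180 days but not at birth. The second difference was −11.4 points (−12.7 to −9.996), on 18 of 18 autosomes. TCF7L2, a factor of Wnt signalling, was in 2.43% of members against 4.47% of regions listed at all 3 ages (−2.04 points, −2.59 to −1.45). In total, the interval lay below 0 for 12 of 19 motifs and above 0 for 3. Those 3 were KLF1, an erythroid factor site of the GC-rich kind, at 2.99% against 1.56%, SPI1, a myeloid and lymphoid factor, at 2.79% against 1.28%, and CTCF, the insulator protein, at 1.43% against 0.56%. Over all newborn liver peaks these 3 stood at 2.47%, 2.60% and 2.68%, and the member share of SPI1 differed from that by 0.18 points (−0.27 to 0.71). The rule removes peaks shared between tissues, so the list is no even background and the lower CTCF share of members is no finding. CTCF was at 0.70% in liver-only regions of birth and 180 days and 0.59% in those of 28 and 180 days. Of the 221 members with a newborn IDR of 0.05 or lower, 0 held a CTCF match. KLF1 stood at 2.63% in regions listed at birth alone, a difference of 0.36 points (−0.21 to 0.97). With an IDR of 0.05 or lower required in every list, the differences of KLF1 and SPI1 were −0.074 and −0.29 points. Each, taken from regions of all 3 ages, had an interval that included 0. That setting also shortens the lists that exclude peaks, so its regions are not all members. Among the 221 members with a newborn IDR of 0.05 or lower, the differences were 0.71 (−0.67 to 3.66) and 0.14 points (−0.60 to 2.49).

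**Figure D3:**
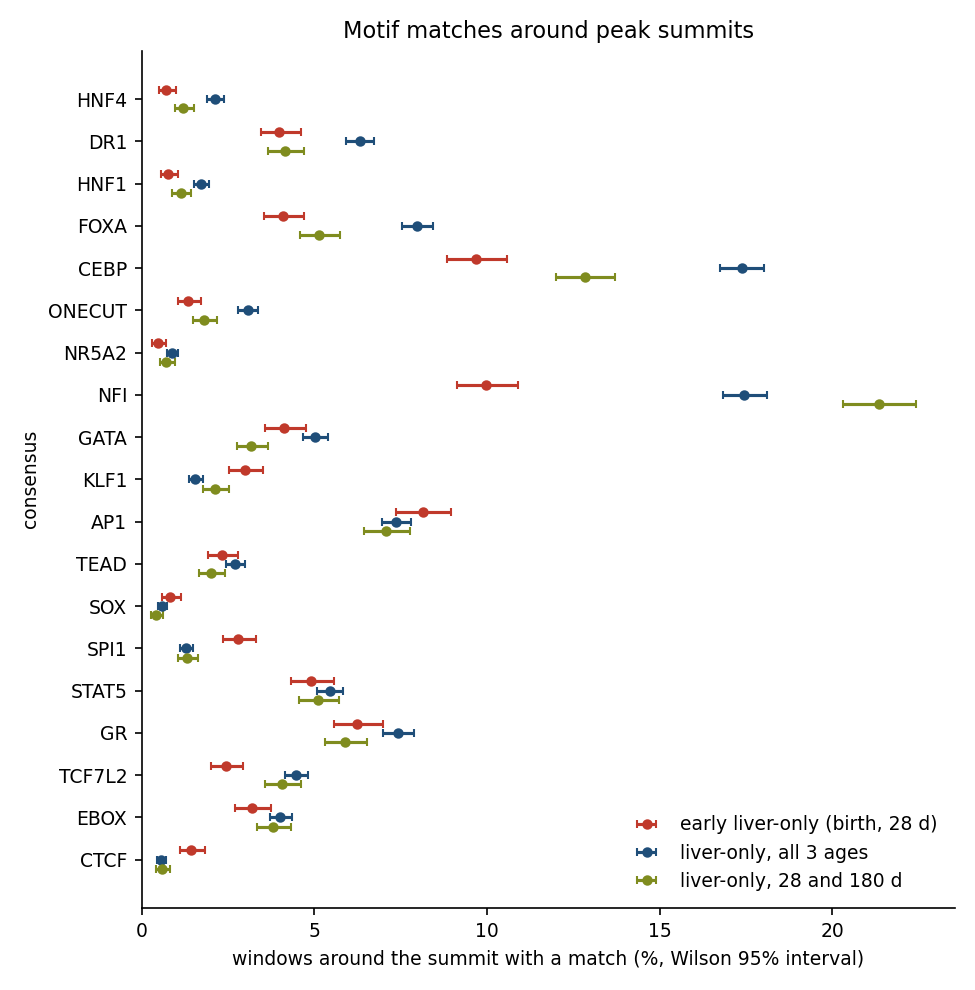
Share (%) of windows of 100 bases on each side of the summit with a match to each of 19 consensus sequences, with Wilson 95% intervals, for early liver-only regions, regions listed at all 3 ages and regions listed at 28 and 180 days. Early regions lie left of the regions of all 3 ages for CEBP (9.67% against 17.4%) and NFI (9.98% against 17.5%) and right of them for KLF1, SPI1 and CTCF.

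Reading the same consensus letters in reversed order keeps base composition but changes which bases are neighbours. It gave a pooled hepatic difference of −1.71 points (−2.51 to −0.86). By the same reading KLF1 differed by 0.72 points, SPI1 by 0.37 and CTCF by 0.14, each with an interval above 0. The reversed CEBP consensus gains a CG pair and lay in 2.13% of regions of all 3 ages, against 17.4% for the consensus itself. Reversed KLF1 keeps most of its letters in the same order. These readings thus cannot show how far base composition moves the shares, and its part in them was not tested.

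Compared with liver-only regions listed at birth alone, the pooled hepatic difference was smaller than against regions of all 3 ages. The pooled hepatic share was 3.06 points lower in members than in the 22.1% of that class (95% interval of the difference from −4.44 to −1.64), on 16 of 18 autosomes. CEBP differed by −2.51 points (−3.56 to −1.42), NFI by −1.82 (−2.87 to −0.72), FOXA by −0.81 (−1.50 to −0.072) and EBOX by −0.81 (−1.43 to −0.15). SPI1 was higher in members by 1.11 points (0.59 to 1.68) and CTCF by 0.62 (0.26 to 1.04), at 1.43% against 0.80%. For the other motifs, HNF4, DR1, HNF1, ONECUT, KLF1 and GATA among them, the interval of the difference included 0.

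The picture changed with peak strength. In the strongest of 4 equal bins of the newborn list, which held 269 members, the pooled hepatic share was 37.5% in members and 39.3% in regions listed at all 3 ages, a difference of −1.77 points (−7.58 to 4.37). In the weakest bin, with 1785 members, it was 14.3% against 28.9%, a difference of −14.5 points (−16.9 to −12.1). FOXA in the strongest bin was at 11.2% in members and 10.9% in the other class. NFI did not follow this course: its difference was −8.57 points (−11.8 to −4.27) in the strongest bin and −7.10 (−9.12 to −5.05) in the weakest. Among the 221 members with a newborn IDR of 0.05 or lower, the NFI difference was −9.45 points (−12.9 to −4.69). With that limit required in every list, it was −2.57 points (−5.29 to 0.46). That setting also shortens the lists that exclude peaks, so its 740 regions are not all members. The bins rest on the smaller −log10 p, and the first replicate column was not matched. Its median was 96.9 in members and 149 in regions of all 3 ages in the strongest bin, and 4.68 and 22.8 in the weakest. Mean GC content in the weakest bin was 53.2% and 48.7%. Regions listed at birth and 180 days shared the members' median smaller −log10 p of 5.43, with 22.9 against 8.46 in the first column. Their pooled hepatic share was 30.6%. The part of these gaps was not tested.

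GATA differed in opposite directions over all members and among the reproducible ones. Over all members its share was 4.12%, against 5.02% of regions listed at all 3 ages. By strength, the difference was 2.84 points (−0.067 to 6.86) in the strongest of the 4 bins, 0.41 in the second, with an interval that included 0, and −1.23 (−2.36 to −0.070) in the weakest. Among the 221 members with a newborn IDR of 0.05 or lower it was 22 of 221 (9.95%), against 5.65% of the regions of all 3 ages that passed the same limit, a difference of 4.30 points (0.91 to 9.01). Of the 55 members that passed in both lists, 8 held it (14.5%, from 7.56% to 26.2%), against 5.07%, a difference of 9.47 points (2.43 to 21.1), while NFI lay in 3 of the 55 (5.45%) against 19.1%. The selection by IDR in both lists was added after the data had been seen, and GATA is 1 of 19 motifs read.

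The 8 reproducible members with a GATA match lay nearest RASL11B, NBAS, PIGH, ASAH2, SCN1A, LOC100736825, PIK3C2G and KLF6. They are named because the count is small, after their values were seen. All 8 were intronic or intergenic. The first of them is the SCFD2 intron region at chr8:39881158-39881547, with newborn −log10 p of 92.5 and 44.2 and suckling −log10 p of 24.3 and 36.1. The one nearest PIK3C2G, a liver-enriched phosphoinositide 3-kinase, had 200 and 16.3 at birth, with an adult peak 375 bp away. That nearest KLF6, a zinc finger factor of stellate cells and hepatocytes, lay 94206 bp from its start.

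**Figure D4:**
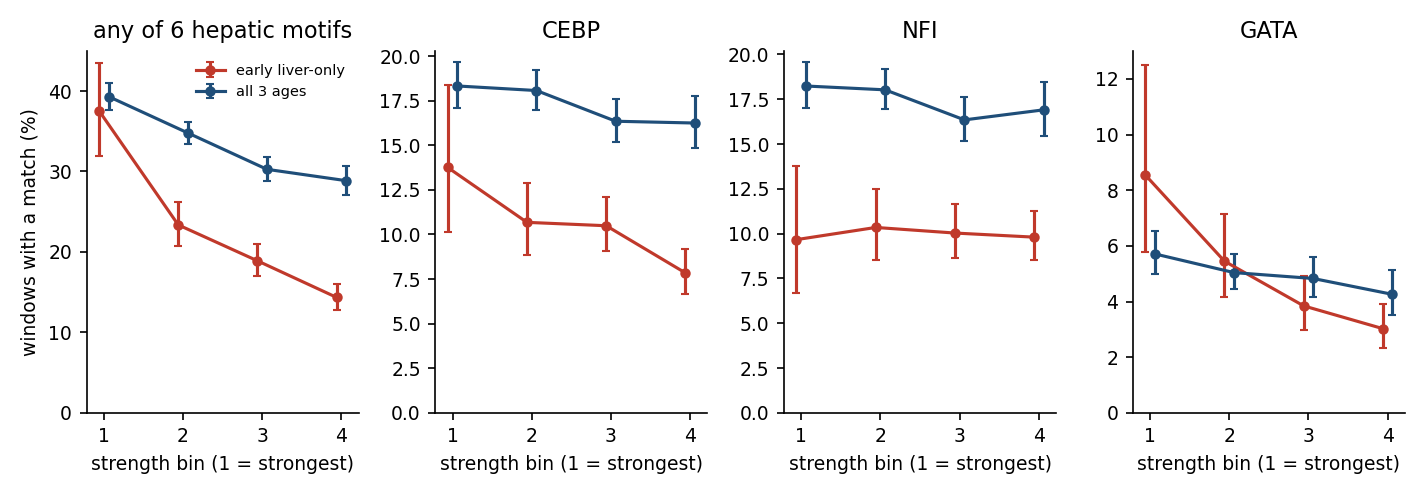
Share (%) of windows of 100 bases on each side of the summit with a match in early liver-only regions and in regions listed at all 3 ages, in each of 4 equal bins of the newborn liver list by the smaller −log10 p, bin 1 being the strongest, with Wilson 95% intervals. The pooled hepatic share of the classes is 37.5% and 39.3% in bin 1 and 14.3% and 28.9% in bin 4, whereas NFI is lower in early regions in every bin.

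Members fell in 2201 of 15871 protein-coding genes that held a newborn liver peak in body or promoter (13.9%), and 1748 of these genes held a single member. Of the newborn liver peaks of such genes, 3.63% were members. In promoters, 158 of 13927 genes with a newborn liver promoter peak held a member (1.13%). An adult liver peak elsewhere in a promoter was listed for 108 of the 158 (68.4%). Of all genes with a newborn liver promoter peak, 92.7% had an adult one. The rule keeps members from overlapping an adult peak, so these shares are not counted alike. Another newborn promoter peak was listed for 115 of the 158, and 39 had neither. Most promoter members thus lay beside other listed peaks of the same gene, and no background was counted for this.

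Transferrin (TF), the iron carrier of plasma, held the most members, 8 in a gene of 39.9 kb (chr13:74930655-74970599, plus strand). Its body and promoter held 15 newborn, 12 suckling and 6 adult liver peaks. The 8 members overlapped only 5 suckling peaks, so several are pieces of a wider suckling peak. The region closest to the gene start, at 74934217 to 74934563 in an intron, had newborn −log10 p of 10.7 and 9.89 and suckling −log10 p of 9.62 and 15.3, with a suckling IDR of 0.026.

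The other 7 TF regions were weak: their newborn −log10 p ran from 3.23 to 8.11 and each had a newborn IDR of 0.603. They formed 2 groups, 5 regions with summits from 11567 to 13678 bp and 2 with summits 24936 and 25245 bp after the gene start. Adult liver peaks lay from 2422 to 8941 bp from all 8. A related gene with the same symbol, annotated as porcine inhibitor of carbonic anhydrase, lies just upstream. Reads of such copies can be assigned to either, although the authors removed poor alignments, and this was not tested.

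**Figure D5:**
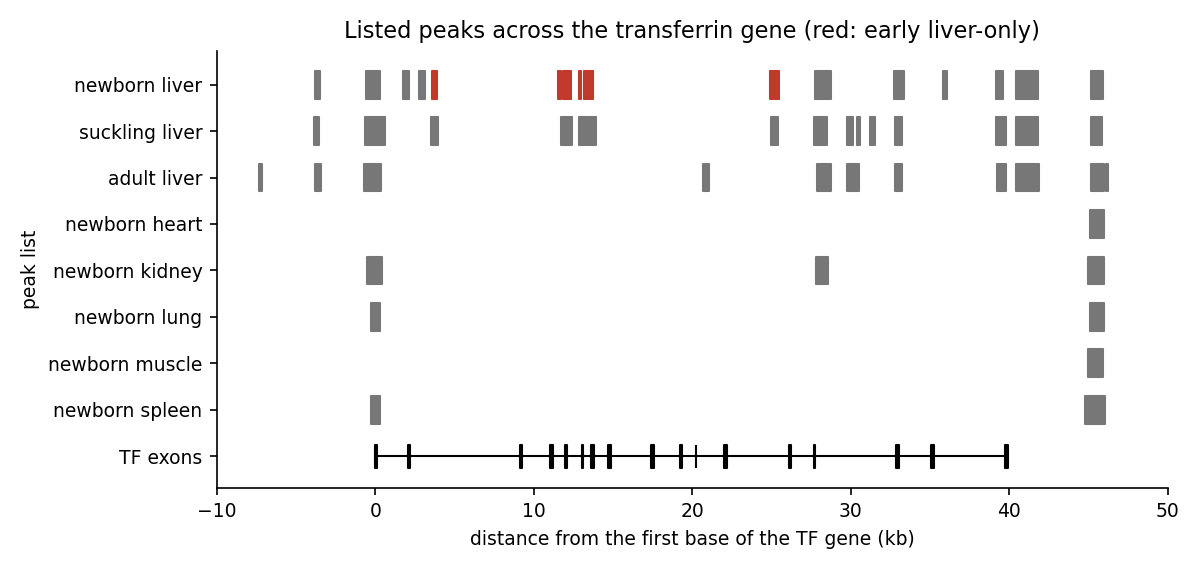
Peaks of the 8 lists across the transferrin gene, by distance (kb) from its first base, with exons at the bottom and the 8 early liver-only regions in red. The red regions lie in 3 stretches of the gene where suckling liver has peaks and adult liver has none, while liver peaks at the start and the end of the gene are shared by the 3 ages.

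The window of 100 kb with the most members was the one around TF and SRPRB, chr13:74900001-75000000, with 8. The next held 5 and covered KIAA0319L, a gene with 6 members in 117 kb, and 9 windows held 4 each, among them those near LOC100521350, in CHSY1, and in COG3 and SLC25A30. Most occupied windows, 3072, held a single member. DOCK2, a guanine nucleotide exchange factor of blood cells, and ENOX1 held 7 members each, but they are 405 kb and 660 kb long. MED12L, ERC1, DOCK1, PSD3, PTPRM and NAV2, from 354 kb to 820 kb long, held 6 each. Per 100 kb of gene, TF had 20.03, KIAA0319L 5.12 and the other 8 genes from 0.73 to 1.73.

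Genes of fetal growth are the list with the highest share of genes with a member, beside a background of 13.9%. Of 21 such genes with a newborn liver peak, 10 (47.6%) had a member. They were IGF2, the fetal growth factor, IGF1R and IGF2R, its receptors, and IGF2BP1 and IGF2BP3, RNA-binding proteins of fetal tissue. LIN28B and TRIM71, of the pathway of the let-7 miRNAs, HMGA2, a chromatin protein, and PLAGL1 and GRB10, imprinted growth regulators, made up the rest. Members made up 14 of 185 newborn peaks in these genes (7.57%, background 3.63%), and regions listed at all 3 ages 4.32% (background 11.3%). These genes are long, with a median of 47.7 kb against 26.2 kb, and the part of length in the count of genes was not tested. The list was written with earlier results of these data known, and no test was made.

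The HMGA2 member, chr5:30196642-30197586, lay in an intron 8593 bp from the start, with newborn −log10 p of 67.2 and 6.65 and suckling −log10 p of 7.17 and 9.95. LIN28B had 10 newborn liver peaks and no adult one, and its member, in an intron, had 29.3 and 8.63 at birth and 5.22 and 17.0 at 28 days. In IGF2BP3 the best of 2 members had 126 and 13.0 at birth and 6.496 and 10.7 at 28 days. In each of these members the first newborn replicate column stood far above the second, and none of the members described here reached a newborn IDR of 0.05. PLAGL1 had a promoter member, 443 bp from a start, with 5.68 and 6.04 at birth. IGF1R held 4 members among 33 newborn peaks, of which the best had 7.86 and 9.55.

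Plasma protein genes also had a high share of members among their peaks, 14 of 140 against the background of 3.63%, but TF alone gave 8 of the 14. The 6 genes were ALB, TF, FGB, APOB, C3 and GC, of 25 (24.0%). Regions listed at all 3 ages were 36.4% of the peaks of these genes, so members were the smaller class there. In ALB, which codes for albumin, a member in an intron, chr8:69648238-69648782, had 32.7 and 16.3 at birth and 12.2 and 9.99 at 28 days, and an adult peak lay 1011 bp away. ALB had 8 newborn and 17 adult peaks. In FGB, a fibrinogen chain, the best member had 11.0965 and 11.0997 in the newborn columns, and in GC, the vitamin D binding protein, 23.2 and 6.33, with an adult peak 74 bp away. C3, the central complement protein, had 15.9 and 5.31 at birth.

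Urea cycle and gluconeogenesis genes held members in 7 of 16 (43.8%, background 13.9%): CPS1, ASS1, ASL and ARG1, enzymes of the cycle, SLC25A13, a mitochondrial carrier, GOT1, an aminotransferase, and SDS, a serine-degrading enzyme. Members were 9 of 140 peaks (6.43%, background 3.63%) and regions listed at all 3 ages 24.3%. These genes held a median of 5 newborn peaks against 3 over all genes, and the part of this in the count of genes was not tested. The best member of each gene was weak: its newborn −log10 p ran from 3.17 to 14.8, and none of these reached an IDR of 0.05. For CPS1 the best member had 9.03 and 6.06 at birth, 276 bp from an adult peak. For SDS it had 6.64 and 8.34 at birth and 5.13 and 23.3 at 28 days. GOT1 had 14.8 and 6.998 at birth, SLC25A13 5.42 and 7.95, and ASL 5.22 and 6.15.

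Genes for hepatic regulators had members in 6 of 26 (23.1%) but in only 11 of 374 peaks (2.94%), among them NR5A2, NR1H4, ZBTB20, NFIA and NFIB. For ZBTB20, a repressor of fetal liver genes, the best member had 13.8 and 7.95 at birth and 6.07 and 6.996 at 28 days. The NFIA member lay 53 bp from an adult peak, with 4.95 and 5.11 at birth, and the NFIB member 436 bp, with 4.87 and 5.43. NR1H4, the bile acid receptor, had 7.18 and 4.78, and NR5A2, a nuclear receptor of bile acid genes, 3.86 and 6.03. These genes thus have members at about the share of peaks of the background.

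Some lists had few members or none. Of 15 genes of the growth hormone and IGF axis with 129 newborn peaks, none held a member, beside the background of 13.9% of genes and 3.63% of peaks, although 23 of those peaks (17.8%) were regions listed at all 3 ages. This count depends on how the lists were split. IGF2, IGF1R and IGF2R were placed in the fetal growth list and held 1, 4 and 1 members. None of 14 myeloid and Kupffer cell genes held a member, but these had only 34 peaks, too few to set a count of 0 apart from a background of 3.63%. Of 18 erythroid genes, ANK1, the ankyrin of red cells, held 4 members among 24 newborn peaks, the best with 6.0005 and 11.3 at birth and 5.52 and 16.6 at 28 days. Members made up 4 of 96 peaks of the erythroid genes (4.17%), near the background of 3.63%.

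Among metabolic lists, members were found in ACACA, ACACB and ELOVL6 (lipogenesis, 3 of 16 genes), CPT1A and ACOT12 (fatty acid oxidation, 2 of 14), CYP27A1 (bile acids, 1 of 15) and CYP2A19, FMO1 and GSTA1 (drug metabolism, 3 of 17). Their shares of newborn peaks ran from 1.20% for bile acids to 4.05% for drug metabolism, around the background of 3.63%. The ACOT12 member had a suckling −log10 p of 15.9 and 20.2 with an IDR of 0.00871, the most reproducible suckling partner of the metabolic lists, against 9.91 and 4.89 at birth.

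Lists of other cell types gave NOTCH2 (cholangiocyte list, 1 of 12 genes), CD2 and PAX5 (lymphocytes, 2 of 12), STAB2, ERG and RELN (endothelial and stellate cells, 3 of 14) and MKI67 and CCND3 (cell cycle, 2 of 14). These shares of genes ran from 8.33% to 21.4%, around the background of 13.9%, and members were from 2.35% to 8.33% of the newborn peaks of a list, beside 3.63%. PAX5 had 4 members, STAB2, the hyaluronan receptor of liver sinusoids, 2, and ERG, an endothelial factor, 2. The ERG member had 11.3 and 9.68 at birth and 6.73 and 8.14 at 28 days. The CCND3 member had 3.98 and 31.4 in the suckling columns, the widest gap between replicate columns at that age among the list genes.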

How the data were processed

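ATAC-seq was run on 16 libraries in 8 groups of 2, grouped by the labels. Per the methods of the study and the submitters' processing notes, Bowtie2 was used by the authors for alignment to Sscrofa11.1 and SAMtools 1.3.1 for the removal of duplicates, poor alignments and mitochondrial reads. MACS2 called peaks in each replicate, and the IDR tool joined them. The MACS2 options combine a read shift with whole-fragment input, so summits may mark fragment centres, not insertion sites.

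The deposited −log10 p values are those the authors obtained with MACS2 for each replicate, and the merged peak carries the smaller. They depend on depth and were read within a list only. The score was deposited by the authors as a rescaled IDR. A score of 540 equals an IDR of 0.05, and lists also hold peaks above that limit. Signal and q-value columns hold a constant and were not used.

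Members, gene lists and motifs were chosen with earlier results of these data known. Regions were compared by overlap of 1 bp. A region took the first feature it touched, with promoters before exons, exons before introns, and introns before the 300 bp past a gene end, from RefSeq genes of Sscrofa11.1. The headers of the replicate columns name no library. Shares carry Wilson and differences Newcombe 95% intervals (statsmodels 0.14.6), which cover counting error only, and no test was made. The sign of each difference was counted over 18 autosomes. Sequences were read with pysam 0.24.0. Named are the 10 best-ranked regions in and outside promoters, the 10 genes and 5 windows of 100 kb with most members, the genes of 15 lists with up to 5 described per list, and the regions at the edges of the rule. Where a symbol has several loci, the one with most newborn peaks was used. The class code recovered 20000 of 20000 simulated peaks, and all planted copies of 19 of 19 motifs were found. These are checks of the code only. Simulated peaks overlapped widely or lay far apart, so overlaps of 1 bp were not tried, and planted copies were exact. Alternatives covered the IDR limit, equal list lengths, overlap, distance, each replicate column alone, promoter size, annotation, motif window and letters, and gene assignment. Some regions and genes that this rule names are not reported here.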

Additional observations from a re-analysis of the deposited data

Results flagged for a closer look

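The rule was restricted to chromosomes 1 to 18, and the same calls were seen in data outside it. On chromosome X, 128 of 2971 newborn liver peaks (4.31%, 95% interval from 3.64% to 5.10%) met it otherwise, which is near the 3.89% of the autosomes. CUL4B, DOCK11, MOSPD1 and PFKFB1, the liver isoform of a regulator of glycolysis, held 3 each, and GPC3, an oncofetal glypican of the fetal growth list, held 2. These genes were named after their values were seen. On unplaced scaffolds 60 of 1521 peaks met it (3.94%, from 3.08% to 5.04%), and on chromosome Y, to which the reads of female pigs should not map, 0 of 16. There was no control library to set these counts against.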

How the results depend on the processing

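Of 61 main values under an alternative, 27 stayed within their limits and 34 moved. Of 220 motif differences from the regions of all 3 ages, 126 stayed within the main interval, 70 moved outside it and 24 changed sign. Changed signs are given only for motifs whose main interval excluded 0; AP1, TEAD, SOX and STAT5, whose main intervals included it, also changed sign in places. The cause was not tested, beyond the smaller number of peaks that a stricter limit leaves by construction.

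With an IDR of 0.05 or lower required of the newborn peak, 221 regions were left, or 0.99% of the newborn peaks that passed. Of these 1.81% lay in promoters, of 4 genes, 3.17% had an adult peak within 500 bp, 1 list gene held a member, and 2 motifs had a lower share. In it HNF1 (1.67 points), FOXA (0.60), ONECUT (1.72), NR5A2 (0.23), GATA (4.30), GR (0.89) and CTCF (−0.12) changed sign. Required in every list, the limit gave 740 regions (3.31%), 6.49% of them in promoters, of 49 genes, 3.92% near an adult peak, 9 list genes and 0 motifs with a lower share, with changed signs for HNF1 (0.31), ONECUT (0.99), GATA (2.11), KLF1 (−0.074) and SPI1 (−0.29). These 740 regions are not all members, because the limit also shortens the lists that exclude peaks. Required of both the newborn and the suckling peak, chosen after seeing the data, the limit gave 55 regions and 1 lower motif. Changed signs there were those of DR1 (2.33), HNF1 (2.23), FOXA (1.86), ONECUT (5.01), GATA (9.47), TCF7L2 (1.11), CTCF (−0.11) and the pooled hepatic share (7.50).

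Equal list lengths of 57126 peaks gave 1995 regions (3.62%), 5.01% in promoters, of 101 genes, 25.9% with an IDR of 0.05 or lower, 4.51% near an adult peak, 7 lower motifs and a GATA difference of 0.13. Overlap of at least 50% of both peaks with the suckling list gave 2.63% of newborn peaks and 10.5% near an adult peak. Removal of regions within 500 bp of an excluded peak gave 2.99%, with 2.81% in promoters, of 96 genes, and 5.71% at the IDR limit. Promoters of 1 kb before to 100 bp after a start held 1.80%, of 80 genes, and all annotated genes gave 4.79% in promoters. Wider motif windows turned EBOX to 0.34, and reversed letters left 4 lower motifs with HNF4 at 0.061 and EBOX at 0.53.

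With 1 replicate column used alone, the number of regions was 4541 or 4609 and the share near an adult peak 12.7% or 13.5%. No paired analysis was possible because no result comes from a test and each list joins its libraries. Depth is unknown from the lists, so a missing call may be a peak below detection. Per the study, each adult liver library gave fewer called peaks than any newborn or suckling liver library. Their informative reads overlapped in number between the ages. The part of this in missing adult calls was not tested.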
